A study of Mus musculus with 10 samples.

Results

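Malat1, Neat1, Meg3, Rian, Miat and Snhg11 are long noncoding RNAs that brain tissue holds in large amounts. They were taken by gene symbol from the deposited count table, in which each symbol had 1 Ensembl identifier, so the members are 6 genes of 25050. All 6 had enough counts to be among the 14526 genes tested. The study compared brains, taken as whole, of 5 wildtype mice (Abcc5+/+) and of 5 mice lacking Abcc5 (Abcc5-/-). All were on the FVB/NJ strain background, with no treatment named. The product of Abcc5 is an export pump for organic anions, of the ATP-binding cassette family. The labels give neither the age of the animals nor the structure of the deleted allele. Animals were asphyxiated with CO2, brains were snap-frozen on dry ice, and the libraries were made from RNA captured on oligo-dT beads. Each library is 1 numbered brain, named here by genotype and replicate. Levels are given in CPM, which scales the counts of each library to the same total, with the TMM factors of edgeR.

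Long noncoding RNAs are transcripts that are not read into protein, and many act inside the nucleus or through the small RNAs cut from them. Malat1 collects in nuclear speckles, the bodies that store splicing factors, while its neighbour Neat1 forms the scaffold of paraspeckles. Meg3 and Rian are made from the maternal chromosome of the imprinted Dlk1-Dio3 region, where Rian and the further gene Mirg carry clusters of small nucleolar RNAs and microRNAs. Miat, also called Gomafu, is a nuclear RNA of neurons whose repeats of the letters UACUAAC are bound by splicing factors such as SF1 and Qki. Snhg11 belongs to the genes that host small nucleolar RNAs in their introns.

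Stretches of the Malat1 and Miat transcripts are shown as background, and their part in the capture of these RNAs was not tested. In the genome sequence of GRCm38 with the GENCODE M21 annotation, Malat1 is a single-exon transcript of 6983 bases. The stretch below ends 258 bases before the annotated 3′ end, at chr19:5795948-5796039 on the minus strand, within the exon. It is shown because the 3′ end of mature Malat1 has no poly(A) tail and is instead protected by a triple helix that an A-rich tract of the transcript helps to form. The tRNA-like mascRNA is cut from the sequence that follows this tract. Capitals mark the longest run of A in the transcript. The table does not show which part of Malat1 the captured fragments came from.
Malat1: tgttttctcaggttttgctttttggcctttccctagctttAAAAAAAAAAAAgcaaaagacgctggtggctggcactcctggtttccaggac
The run held 12 A, and 19.2% of 3994 annotated transcripts of similar length (80% to 125% of that of Malat1) had a run of A at least as long. The longest run of A was 16 in Meg3 and 15 in Rian, but 8 in Snhg11, 7 in Neat1 and 4 in Miat.

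The longest annotated Miat transcript has 9163 bases in 7 exons and holds the letters TACTAAC 6 times, counted on the transcript strand only. Among 1784 transcripts of similar length, this Miat transcript included, 20.1% held the letters at all and 0.112% held them at least as often. The window of 200 bases with the most copies lies at chr5:112217251-112217450 on the minus strand of GRCm38, within an exon, and capitals mark the 3 copies in it.
Miat: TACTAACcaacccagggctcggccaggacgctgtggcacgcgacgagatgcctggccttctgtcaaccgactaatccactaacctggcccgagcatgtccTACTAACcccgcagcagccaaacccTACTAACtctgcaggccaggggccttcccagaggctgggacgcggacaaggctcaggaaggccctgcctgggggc
Neat1 held 1 copy of these letters and the transcripts of Malat1, Meg3, Rian and Snhg11 held 0.

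The libraries held between 7731294 and 23588335 counts. The 3 deepest were wildtype replicate 1 and, of the knockouts, replicates 2 and 4, with 19795743 counts or more, and the other 7 had at most 11479995. Abcc5 itself fell from 311.1 ± 12.6 CPM to 218.8 ± 5.95 CPM in the knockouts (SD, n = 5 each; edgeR adjusted p 6.35e-06), with no overlap. Knockout replicate 3 stood apart, with a value of 42 on the first principal component (33% of the variance) against -6.86 to -2.53 in the other 9 libraries. The summed level of 13 markers of cerebellar granule and Purkinje cells was 1061 CPM there and 2800 to 3168 CPM elsewhere. All 13 were lowest in that library. Gabra6 was at 1.58 CPM there and 150 to 181 CPM elsewhere, and Pcp2 at 0.396 CPM there and 23.1 to 32.8 CPM elsewhere. The genotype difference of each of the 6 RNAs is therefore also given without it.

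The 6 RNAs together made up 1.12% to 1.34% of all counts in a library. By mean CPM over all tested genes Meg3 held rank 3, Snhg11 rank 13, Malat1 rank 35, Rian rank 92, Miat rank 134 and Neat1 rank 1081. Snhg11 is annotated as protein-coding in the deposited table, Neat1 as non_coding and the other 4 as lincRNA. Without Snhg11, the remaining 5 made up 66.9% to 71.1% of the counts of all genes annotated as lincRNA or non_coding. Among those genes Meg3 held rank 1, Malat1 rank 2 and Rian rank 3. The places between them and Neat1 were filled by 1700020I14Rik (rank 4), Miat (rank 5) and A930011O12Rik (rank 6), and Neat1 held rank 7.

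Levels of different genes can be set side by side only per length, so CPM was divided by the length of the merged exons in kilobases. Meg3 was highest at 369.4 ± 23.3 CPM per kb (SD, 10 libraries), then Snhg11 at 293.5 ± 24.7 and Malat1 at 188.5 ± 27.9. Miat followed at 71.7 ± 7.65 CPM per kb, Rian at 45.0 ± 2.13 and Neat1 at 8.95 ± 1.27. Each gene was above the next in this order in 10 of 10 libraries. The order of these levels depends on the length that is used, and the lengths of Rian and Miat were matched by symbol because their identifiers are retired. Divided by the longest annotated transcript in place of the merged exons, Rian (8089 bases) was at 101.5 ± 4.79 CPM per kb, above Miat (9163 bases) at 72.7 ± 7.76 in 10 of 10 libraries. On that length Meg3 was above Snhg11 in 9 of 10 libraries, knockout replicate 3 being the exception. The place of Neat1 depends on which transcript the reads came from, because a long form and short forms start at the same promoter. Divided by its transcript of 3004 bases in place of the 20771 bases of the whole locus, Neat1 was at 61.9 ± 8.80 CPM per kb. That value lay between the means of Rian and Miat on merged exons, but below both on their longest transcripts. The table counts genes, not transcripts, so the forms were not told apart.

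The comparison of genotypes asked whether any of these RNAs differed between wildtype and Abcc5-/- brains. None of the 6 passed the edgeR quasi-likelihood test at an adjusted p of 0.05, against 1.18% of all tested genes (171 genes, 31 higher and 140 lower in knockout). Malat1 was the member with the largest difference, a mean 1.18-fold higher in knockout, and was the only 1 of 6 with an unadjusted p under 0.05. That level was reached by 14.8% of all tested genes. The other 5 had fold changes between 1.00 and 1.07. The groups overlapped for each of the 6, while 4.19% of tested genes had groups that did not overlap. The DESeq2 Wald test and limma-voom called none of the 6 either.

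**Figure D1:**
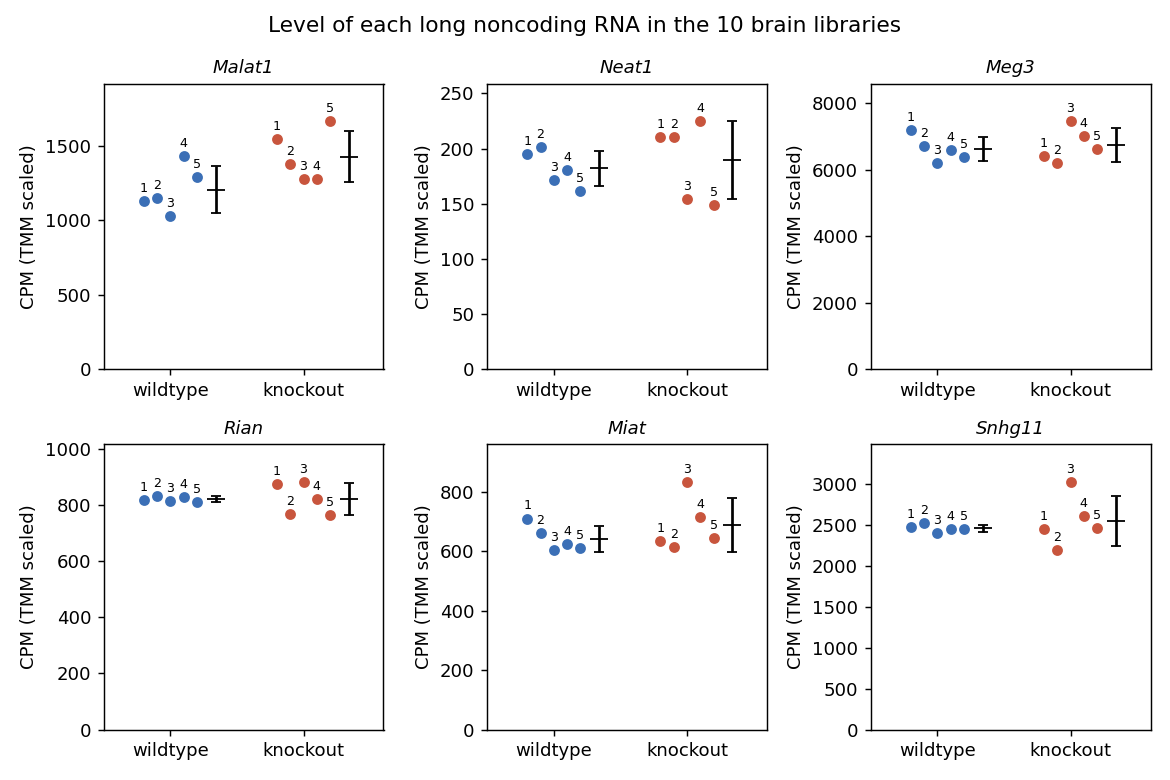
Level of each of the 6 RNAs (y axis, CPM scaled by TMM, starting at 0) in wildtype (blue) and knockout (red) brains. Points are libraries numbered by replicate and the bars give mean ± SD (n = 5). Wildtype and knockout libraries overlap in all 6 panels, and knockout replicate 3 is the highest library for Meg3, Rian, Miat and Snhg11.

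Malat1 (ENSMUSG00000092341) lies on chromosome 19 at 5795690 to 5802671 (positions here are those of the table, for which no build is stated). In wildtype replicates 1 to 5 it was at 1131, 1150, 1026, 1429 and 1289 CPM. In knockout replicates 1 to 5 it was at 1543, 1377, 1277, 1274 and 1668 CPM. Knockout replicates 1 and 5 were above every wildtype library, and the other 3 lay inside the wildtype range. The wildtype mean was 1205 ± 156 CPM and the knockout mean 1428 ± 173 CPM (SD, n = 5 each). The log2 fold change was 0.24 (SE 0.088, 95% interval 0.056 to 0.43), with an edgeR p of 0.0143 and an adjusted p of 0.212. The spread within a genotype was nearly equal, with coefficients of variation of 13.0% in wildtype and 12.1% in knockout. In knockout replicate 3 Malat1 was at 0.967 of the mean of the other 9 libraries. Without that library the log2 fold change was 0.28 and the edgeR adjusted p 0.0759, the lowest over 21 alternative settings. Among the 7 libraries with fewer counts it was 0.29 (adjusted p 0.334).

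Neat1 (ENSMUSG00000092274) lies 22037 bases from Malat1 on the same chromosome, at 5824708 to 5845478. Its wildtype libraries read 195, 201, 171, 181 and 162 CPM, and its knockout libraries 210, 210, 154, 225 and 149 CPM. Knockout replicates 1, 2 and 4 were above all wildtype libraries and knockout replicates 3 and 5 below all of them. The means of 181.9 ± 16.3 and 189.7 ± 35.6 CPM (SD, n = 5 each) differed by a log2 fold change of 0.066 (SE 0.105, 95% interval -0.158 to 0.29, edgeR adjusted p 0.826). The SD in knockout was 2.19 times that in wildtype, and over the other 4 knockouts without replicate 3 it was 34.1 CPM. The 3 deepest libraries were at 194.9, 210.5 and 225.1 CPM, among the 5 highest, and the part of depth in this was not tested. Among the 7 other libraries the log2 fold change was -0.063, and without knockout replicate 4 it was -0.0048. Without knockout replicate 3 it was 0.13.

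Since Malat1 and Neat1 are neighbours, their ratio within a library, which no scaling between libraries touches, was compared as well. The ratio of Neat1 to Malat1 counts was 0.172, 0.175, 0.167, 0.127 and 0.125 in wildtype and 0.136, 0.153, 0.121, 0.177 and 0.0891 in knockout. The lowest and the highest ratio were both in knockout brains, in replicates 5 and 4, and in wildtype replicates 4 and 5 lay apart from the other 3. The difference in mean log2 ratio, knockout minus wildtype, was -0.20. An exact permutation test over 252 assignments, two-sided, gave p = 0.333 (adjusted p 0.667 over the 2 ratios compared, n = 5 each), where the smallest p the design allows is 0.00794. Without knockout replicate 5 the difference shrank to -0.062, and without knockout replicate 3 it was -0.17.

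Meg3 (ENSMUSG00000021268) lies on chromosome 12 at 110779211 to 110809936. Its wildtype libraries read 7181, 6708, 6215, 6604 and 6390 CPM, and its knockout libraries 6417, 6207, 7471, 7017 and 6619 CPM. The highest and the lowest library were both knockouts, so the wildtype range lay inside the knockout range. The means were 6620 ± 368 and 6746 ± 503 CPM (SD, n = 5 each), a log2 fold change of 0.027 (SE 0.053, 95% interval -0.086 to 0.14, edgeR adjusted p 0.864). The interval leaves room for a level at most 1.10-fold higher or 0.942-fold that of wildtype. Without knockout replicate 3 the log2 fold change was -0.011.

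Rian (ENSMUSG00000091793) follows Meg3 after a gap of 32219 bases, at 110842155 to 110899919. Its level was nearly constant in wildtype, at 816, 832, 816, 830 and 809 CPM. The knockout libraries spread more widely, at 876, 768, 883, 821 and 762 CPM. Replicates 1 and 3 of the knockouts were above the wildtype range and replicates 2 and 5 below it. The means of 820.6 ± 9.89 and 822.2 ± 57.3 CPM (SD, n = 5 each) gave a log2 fold change of 0.0024 (SE 0.046, 95% interval -0.096 to 0.10, edgeR adjusted p 0.992). The SD in knockout was 5.80 times that in wildtype, a difference in spread that was described and not tested. It remained at 53.2 CPM over the other 4 knockouts without replicate 3. Counting error at the lowest Rian count over both genotypes, 6245, is 1.27%. The wildtype coefficient of variation, 1.20%, was no larger than that, and the ratio of the SDs rests on this small spread. The log2 fold change without knockout replicate 3 was -0.023.

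Meg3 and Rian come from the same imprinted region and their ratio was compared in the same way. The ratio of Rian to Meg3 counts was 0.114, 0.124, 0.131, 0.126 and 0.127 in wildtype and 0.137, 0.124, 0.118, 0.117 and 0.115 in knockout. Knockout replicate 1 was above all wildtype libraries, and the other 4 knockouts lay inside the wildtype range. The difference in mean log2 ratio was -0.026 (exact permutation p = 0.667, two-sided, adjusted p 0.667, n = 5 each). Without knockout replicate 3 the difference was -0.015. In the RefSeq annotation (GRCm38.p6) the span of Meg3 holds 1 microRNA hairpin, Mir770, and that of Rian 3, namely Mir370, Mir341 and Mir1188. The 15 small RNA genes that overlap Rian in the deposited table each had at most 0.07% as many counts as Rian.

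Mirg, the next noncoding gene of the region, was the list gene with the smallest p there. Its wildtype libraries read 41.0, 34.2, 32.8, 38.6 and 33.4 CPM, and its knockout libraries 27.1, 27.3, 28.0, 34.0 and 33.8 CPM. Knockout replicates 1, 2 and 3 were below all wildtype libraries. The log2 fold change was -0.27 (SE 0.086, edgeR p 0.00686, adjusted p 0.156), above the threshold. Mirg per 1000 Meg3 counts ran from 5.09 to 5.84 in wildtype and from 3.74 to 5.11 in knockout, with the lowest value in replicate 3. This ratio was chosen after its values were seen and was not tested.

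**Figure D2:**
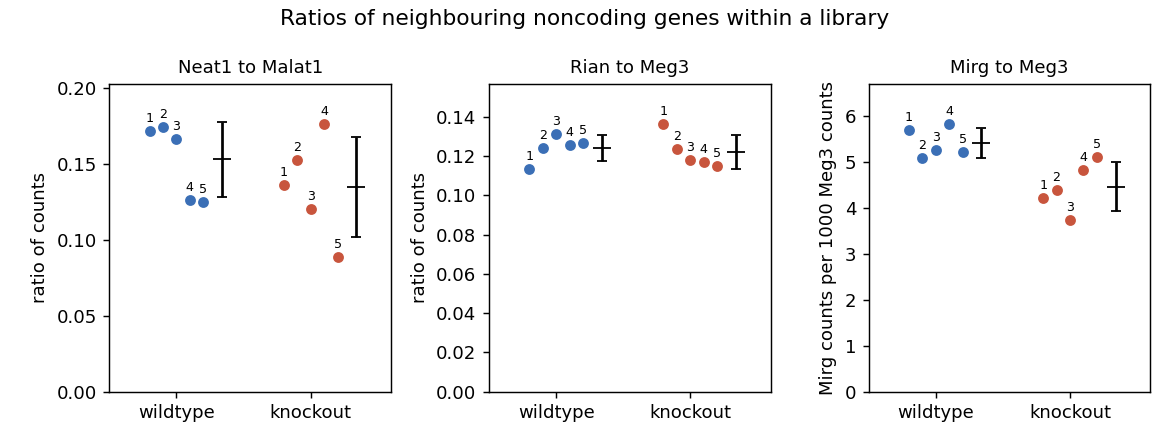
Ratios of counts within a library (y axes, starting at 0) for Neat1 to Malat1, Rian to Meg3 and Mirg per 1000 Meg3 counts, in wildtype (blue) and knockout (red) brains. Points are libraries numbered by replicate and bars give mean ± SD (n = 5). Wildtype and knockout overlap in all 3 panels, with knockout replicate 5 lowest for Neat1 to Malat1 at 0.0891.

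Miat (ENSMUSG00000086878), on chromosome 5 at 112642248 to 112657968, is the RNA with the TACTAAC copies printed above. Its wildtype libraries read 711, 663, 605, 625 and 612 CPM, and its knockout libraries 634, 614, 835, 717 and 645 CPM. Knockout replicate 3 was far above all other libraries, knockout replicate 4 was just above the highest wildtype library, and the other 3 lay inside the wildtype range. The means of 643.0 ± 43.9 and 689.1 ± 90.1 CPM (SD, n = 5 each) gave a log2 fold change of 0.099 (SE 0.075, 95% interval -0.061 to 0.26, edgeR adjusted p 0.573). Without knockout replicate 3 it was 0.023 (edgeR adjusted p 0.859).

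Snhg11 (ENSMUSG00000044349) lies on chromosome 2 at 158201374 to 158211881. Its wildtype libraries read 2472, 2516, 2398, 2449 and 2450 CPM, and its knockout libraries 2445, 2194, 3024, 2600 and 2461 CPM. Knockout replicates 3 and 4 were above and replicate 2 below the narrow wildtype range. The means were 2457 ± 42.8 and 2545 ± 305 CPM (SD, n = 5 each), with a log2 fold change of 0.050 (SE 0.064, 95% interval -0.086 to 0.19, edgeR adjusted p 0.767). The SD in knockout was 7.13 times that in wildtype, and without knockout replicate 3 the SD of the other 4 was 169 CPM. Without that library the log2 fold change was -0.018.

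**Figure D3:**
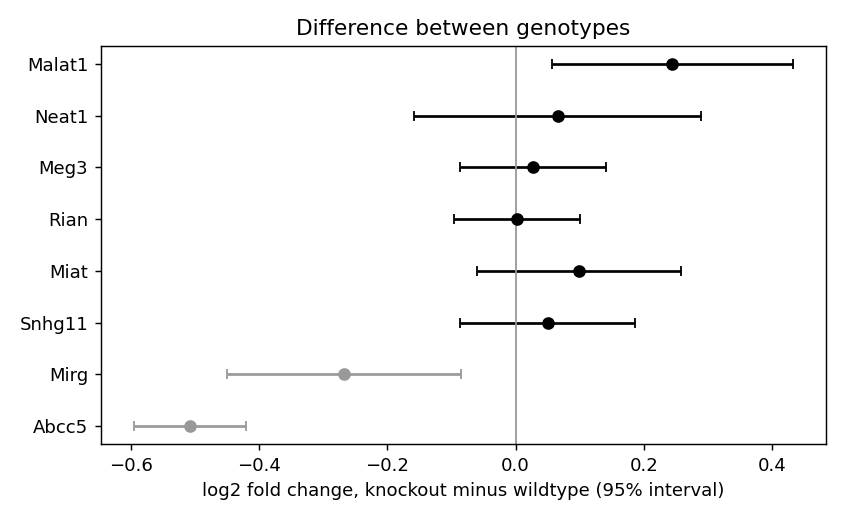
Log2 fold change between knockout and wildtype (x axis, points) with its 95% interval (bars) from the edgeR fit for the 6 RNAs (black) and for Mirg and Abcc5 (grey). The intervals, not adjusted for the number of genes tested, include 0 for Neat1, Meg3, Rian, Miat and Snhg11. That of Malat1 runs from 0.056 to 0.43 and that of Mirg from -0.45 to -0.085 (edgeR adjusted p 0.212 and 0.156). Abcc5 is at -0.51.

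Knockout replicate 3 was the highest of the 10 libraries for 4 of the 6 RNAs. Against the mean of the other 9 libraries it was at 1.29 for Miat, 1.24 for Snhg11, 1.13 for Meg3 and 1.08 for Rian. Neat1 was at 0.814 of that mean, the second lowest value. In the same library the summed cerebellar markers were at 35.7% of the mean of the other 9. The sum of 11 olfactory bulb and striatum markers was 787 CPM against 528 to 666 CPM elsewhere, that of 9 microglial markers 266 against 185 to 227 CPM, and that of 8 oligodendrocyte markers 6271 against 6497 to 7609 CPM. The sum of 6 endothelial markers was 307 CPM against 259 to 284 CPM, and that of 8 astrocyte markers 5224 against 4746 to 5212 CPM. Of the astrocyte markers 1 was at its highest in that library and 3 at their lowest. Among the oligodendrocyte markers 2 of 8 were at their lowest there, and among the endothelial markers 2 of 6 at their highest. The sum of 11 neuronal markers was 9509 CPM against 8736 to 9268 CPM, although 4 of the 11 were at their lowest there and 4 at their highest. The microglial sum was also higher in all 5 knockouts (221 to 266 CPM) than in any wildtype library (185 to 207 CPM). Its 9 markers had a median log2 fold change of 0.16. At an unadjusted p under 0.05, 5 were higher (55.6%, beside 14.8% of all tested genes). The edgeR adjusted test called 2 of these higher (22.2%, beside 1.18%). The 2 were subunits of the complement protein C1q, C1qc at a log2 fold change of 0.52 and C1qb at 0.34 (edgeR adjusted p 0.00437 and 0.0378). These were 0.55 and 0.32 without knockout replicate 3 (edgeR adjusted p 0.00144 and 0.0386). Of the 11 olfactory bulb and striatum markers, 1 fell by the edgeR adjusted test (9.09%). The part of these markers in the levels of the 6 RNAs was not tested. In tissue RNA, fewer cells of a type and less RNA per cell cannot be told apart. Whether the sample of knockout replicate 3 held the whole cerebellum was not tested. Over the other 4 knockouts the mean was 1.22 times the wildtype mean for Malat1, 1.09 times for Neat1 and 1.02 times for Miat. It was 0.992 times for Meg3, 0.987 times for Snhg11 and 0.983 times for Rian.

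**Figure D4:**
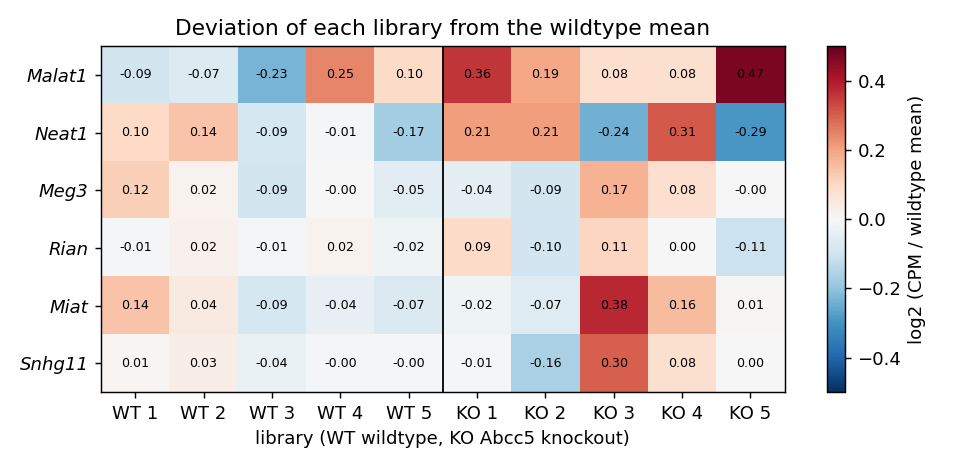
Log2 ratio of the CPM of each library (columns, WT wildtype and KO knockout) to the wildtype mean of the same RNA (rows), coloured from blue (lower) to red (higher) and printed in each cell. Knockout replicate 3 is at 0.38 for Miat and 0.30 for Snhg11, and Malat1 is above the wildtype mean in all 5 knockouts.

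Across the 10 libraries, Meg3, Miat and Snhg11 varied together. These correlations are descriptions, and the libraries share their scaling. Pearson's r of log2 CPM was 0.95 for Meg3 and Miat, 0.88 for Miat and Snhg11, and 0.83 for Meg3 and Snhg11 (n = 10). Without knockout replicate 3 (n = 9) these were 0.95, 0.64 and 0.70. Meg3 and Rian, though neighbours, had an r of 0.45, and 0.15 without that library. Malat1 had r from -0.17 to -0.098 with the other 5, and from -0.17 to -0.11 without that library. Neat1 had r from -0.35 to 0.093 with the others, and from -0.17 to 0.46 without knockout replicate 3.

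For each RNA, the 3 genes of at least 10 CPM whose log2 level followed it most closely over the 10 libraries were found, among 10293 such genes. For Meg3 they were Hmgn3 (r = 0.96), Cpne7 (0.96) and Bzrap1 (0.95). For Miat they were Cpne7 (r = 0.97), Matk (0.97) and Bzrap1 (0.96), so Cpne7 and Bzrap1 were near both. Neat1 was followed by Acss2 (r = 0.95), Litaf (0.94) and Fto (0.93), and Malat1 by Rims2, Spg11 and Bbs9 (r = 0.91, 0.91 and 0.90). Rian was followed by Vwa5b1, Hs1bp3 and Dnahc1 (r = 0.89 each). For Snhg11 they were Rapgef4 (r = 0.92), A330021E22Rik (0.92) and Dnhd1 (0.90), and these values fell to 0.71, 0.72 and 0.74 without knockout replicate 3. For the other 5 RNAs the values without that library were 0.85 to 0.95, and over all 6 RNAs 6 of the 18 pairs were still among the 3 highest. These values were picked as the highest of many and are given without a test.

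Genes near the 6 RNAs were then described from chosen lists, which do not hold every neighbour. Snhg17 (9430008C03Rik in the table), 14058 bases from Snhg11, was counted among the other long noncoding RNAs instead. Sssca1, 63958 bases from Malat1, was not listed. None of the 13 tested genes of the Dlk1-Dio3 region and its flanks passed the edgeR adjusted test, and 2 were higher and 3 lower at an unadjusted p under 0.05 (38.5%, beside 14.8% of all tested genes). Their median log2 fold change was -0.016, beside 0.0042 over all tested genes. Hsp90aa1, a cytosolic chaperone, was at 600.3 ± 41.7 CPM in wildtype and 543.5 ± 31.1 CPM in knockout (edgeR adjusted p 0.229), and Dync1h1, the heavy chain of cytoplasmic dynein, had a log2 fold change of -0.030.

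Around Malat1 and Neat1, 0 of 13 tested genes passed and 1 was lower at an unadjusted p under 0.05 (7.69%, beside the same 14.8%), with a median log2 fold change of 0.050. That gene was Dpf2, a subunit of chromatin remodelling complexes, at 71.7 ± 0.922 CPM in wildtype and 64.2 ± 3.91 CPM in knockout, with no overlap (log2 fold change -0.15, edgeR adjusted p 0.147). The log2 fold change was 0.12 for Ehbp1l1 and 0.050 for Ltbp3, which encodes a protein that binds latent TGF-beta. Around Miat, 0 of 8 passed, 3 were higher and 1 lower at an unadjusted p under 0.05 (4 of 8, beside 14.8%), and the median was 0.100. Hps4, which acts in the making of lysosome-related organelles, had a log2 fold change of -0.27 and Tpst2, a protein tyrosine sulfotransferase, 0.27 (edgeR adjusted p 0.149 and 0.185). Sez6l was at 0.091 and Adrbk2, a receptor kinase now named Grk3, at 0.023. Around Snhg11, 0 of 11 passed, 2 were higher and 1 lower at an unadjusted p under 0.05 (27.3%, beside 14.8%), and the median was 0.022. Rprd1b was at -0.17 and Vstm2l at 0.18 (edgeR adjusted p 0.224 and 0.269), while Ralgapb was at -0.048 and Ppp1r16b at 0.022.

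Of the other long noncoding RNAs of brain, 27 of 53 listed could be tested and 0 passed. At an unadjusted p under 0.05, 3 were higher and 4 lower (25.9%, beside 14.8% of all tested genes), and the median log2 fold change was -0.046. Gas5, a host of small nucleolar RNAs like Snhg11, was at 72.9 ± 3.88 CPM in wildtype libraries and at 82.4 ± 4.19 CPM in knockouts, with no overlap, at an edgeR adjusted p of 0.116 (log2 fold change 0.17). Snhg20, listed in the table as 2810008D09Rik, was at 0.39 (edgeR adjusted p 0.0957). The most abundant genes of the list were 1700020I14Rik, at -0.099, and Tug1, at -0.046.

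Among 42 tested proteins of nuclear speckles and paraspeckles, the bodies that Malat1 and Neat1 occupy, 2 fell and 0 rose. The edgeR adjusted test so called 4.76%, beside 1.18% of all tested genes, a share that rests on these 2 genes. At an unadjusted p under 0.05, 1 of the 42 was higher and 7 were lower, beside 14.8% of all tested genes. The list was chosen with earlier results of these data known. Tra2a, an SR-like splicing regulator, went from 81.7 ± 1.93 CPM to 60.9 ± 2.18 CPM (SD, n = 5 each), a log2 fold change of -0.43 (SE 0.042, edgeR adjusted p 7.22e-05). Its wildtype libraries ran from 79.7 to 84.7 CPM and its knockout libraries from 57.2 to 62.8 CPM, lower in 5 of 5. Hnrnph1, which binds G-rich RNA and is found in paraspeckles, went from 357.1 ± 4.19 CPM to 303.6 ± 10.1 CPM (log2 fold change -0.23, SE 0.037, edgeR adjusted p 0.00452). It too was lower in 5 of 5 knockouts. Without knockout replicate 3 the log2 fold changes were -0.43 and -0.22, and among the 7 libraries with fewer counts Hnrnph1 had an edgeR adjusted p of 0.0543. The most abundant genes of the list, Srrm2 and Son, which build the core of speckles, had log2 fold changes of 0.0050 and 0.0043. The median of the list was -0.017.

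Of 29 tested genes for nuclear RNA decay factors, which include the exosome that degrades noncoding transcripts, 0 passed. At an unadjusted p under 0.05, 0 were higher and 3 lower (10.3%, beside 14.8%). The median log2 fold change was -0.021. Ythdc1, a nuclear reader of methylated adenosine, was at -0.18 (edgeR adjusted p 0.0777) and Smg1, the kinase of nonsense-mediated decay, at -0.14. Over the 7 lists together, 2 of 142 genes passed the test (1.41%, beside 1.18% of all tested genes) and 30 had an unadjusted p under 0.05 (21.1%, beside 14.8%).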

How the data were processed

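RNA was measured in 10 mouse brains, taken as whole. Per the submitters' processing notes the authors used TopHat2 2.0.6, HTSeq, edgeR and limma. The order, settings, strand handling and genome build are not given in the sources used here. The authors deposited counts per Ensembl gene and library. A further 10 columns of sample values had lost decimal points and were not used. Table positions on chromosome 7 go up to 152509964, whereas the last gene of GRCm38.p6 there ends at 145324059, and they were printed unchanged. GRCm38 was used for sequences only.

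With edgeR 4.0.16 (R 4.3.3), low counts were filtered by filterByExpr, and libraries were scaled by TMM. The filter had a minimum count of 10, not required in every library, and a minimum total of 15. Genes were tested by the quasi-likelihood test with genotype as its only term, with Benjamini-Hochberg adjustment over 14526 genes. SEs were derived from the F statistic. Ratios were tested by exact permutation. The method was tested on simulated data. Those data gave every gene the same spread and held no outlying library like knockout replicate 3, so such a library was not covered. P-values measure the spread between brains, and chi-square per degree of freedom between replicates was at least 1.29. Same-numbered libraries did not vary together (r -0.138 to 0.0893). Alternatives were other scalings and filters, a replicate block, a depth term, the shallower libraries, each library left out, limma-voom (limma 3.58.1) and DESeq2 1.42.0.

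The members and lists were chosen with earlier results of these data known. Of 185 listed genes, 162 matched the table. Named are the members, Abcc5, called list genes, the 2 list genes with the smallest p, the 2 most abundant, the 3 genes most correlated with each member (mean of at least 10 CPM), and markers that moved with a result. A result that this rule names is not reported here.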

Additional observations from a re-analysis of the deposited data

How the results depend on the processing

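Each of the 6 RNAs was refitted under 21 alternatives, which gave 126 values, of which 0 passed an adjusted p of 0.05 and 14 changed sign. Malat1 and Miat kept their sign throughout, with log2 fold changes of 0.18 to 0.31 and 0.023 to 0.14 when a library was left out. For Neat1 the log2 fold change was -0.063 in the 7 shallower libraries and -0.0048 to 0.14 when a library was left out. For Meg3 it was -0.011 to 0.058 when a library was left out. For Rian it was -0.0055 with total counts only, -0.00029 with no low-count filter, -0.0014 with limma-voom, -0.020 with sample weights, and -0.023 to 0.026 when a library was left out. For Snhg11 it was -0.0093 with sample weights and -0.018 to 0.099 when a library was left out. With a replicate block Rian was at -5.0e-05 and 90 genes of the whole table were called, but replicate numbers did not pair the samples. The other counts over all genes were 31 in the 7 shallower libraries, 563 with sample weights, 261 with the DESeq2 Wald test, and 76 to 341 when a library was left out, the highest without knockout replicate 3. Over the 7 lists together 4 genes were called with depth as a term, 1 in the shallower libraries, 11 with sample weights, 6 with the DESeq2 Wald test, and 2 to 5 when a library was left out. With group means subtracted, 8 of the 18 pairs of an RNA and a correlated gene remained, which are 7 of 16 distinct genes. The cause of these changes was not tested. The Neat1 to Malat1 log2 difference kept its sign at -0.31 to -0.062 and the Rian to Meg3 difference at -0.067 to -0.0054 when a library was left out. Counting error at the lowest library was 0.456% for Meg3 and 2.93% for Neat1.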

Other observations

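Among 416 tested genes annotated as lincRNA, which include Malat1, Meg3, Rian and Miat, 4 others rose and 2 fell in knockout brains, or 1.44% called beside 1.18% of all tested genes. The median log2 fold change of the 416 was 0.061 and that of all tested genes 0.0042, and at an unadjusted p under 0.05 the lincRNA genes counted 42 higher and 11 lower (12.7%), beside 979 higher and 1166 lower of all tested genes (14.8%). The share of mitochondrial counts was 5.45% to 5.80% in wildtype and 5.55% to 6.96% in knockout libraries, and the summed microglial markers were higher in all 5 knockouts. Their part in this median was not tested. Over the 21 alternatives that median lay between 0.037 and 0.087, and without knockout replicate 3 it was 0.059. These genes were looked at after their values were seen, and no test of the group was made.

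1700016P03Rik fell from 3.23 ± 0.592 CPM to 0.948 ± 0.305 CPM (SD, n = 5 each), a log2 fold change of -1.65 (SE 0.197, edgeR adjusted p 0.000426), and was lower in 5 of 5 knockouts. It was called under 20 of 21 alternatives. The exception was the DESeq2 Wald test, which gave it no adjusted p. The highest edgeR adjusted p was 0.0260, in the 7 shallower libraries. A330023F24Rik, whose RefSeq span holds the microRNA hairpins Mir29b-2 and Mir29c, fell from 142.4 ± 4.51 CPM to 121.4 ± 9.10 CPM (log2 fold change -0.23, edgeR adjusted p 0.0439) and was called under 11 of 21 alternatives. 4930570G19Rik rose from 15.7 ± 1.34 CPM to 20.6 ± 0.763 CPM (log2 fold change 0.39, edgeR adjusted p 0.0107) and was called under 20 of 21, the exception being the 7 shallower libraries. 2900052L18Rik, 9530082P21Rik and AW047730 rose with log2 fold changes of 0.57, 0.56 and 0.30 (edgeR adjusted p 0.0439, 0.0439 and 0.0441). They were called under 10, 8 and 11 of the 21 alternatives.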
